A study of Mus musculus with 4 samples.

Results

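The AP-1 transcription factor genes and their fellow immediate early genes were described here as a set of 10 genes among the 25793 gene symbols counted in mouse liver libraries. The members were chosen by symbol: the Fos family (Fos, Fosb, Fosl1 and Fosl2), the Jun family (Jun, Junb and Jund), and Atf3, Egr1 and Ier3. Bulk RNA sequencing gave 1 library for each of 4 samples. The samples labelled liver tumor1 and liver tumor2 came from tumours of genotype beta-2SP+/- ; SMAD3+/- (1 mutant copy each of the genes for beta-2 spectrin and SMAD3), and are called tumours 1 and 2. A normal liver sample carried the same genotype label, and another was labelled wild type. Sex, age, the alleles' construction and whether the tumours came from separate animals are not given in the labels. P-values therefore measure only the spread between these samples, which may be technical.

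AP-1 is a dimer of basic leucine zipper proteins, in which a Fos protein pairs with a Jun protein or Jun proteins pair with each other. Several of its genes are transcribed within minutes of growth factor, stress or cytokine signals, without new protein synthesis, and are therefore called immediate early genes. MAP kinases drive this response through factors such as SRF and the ETS protein ELK1 and by phosphorylating Jun proteins. In liver, Jun and Fos are known for their induction at the start of regeneration, and Jun is needed for hepatocyte survival and proliferation.

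Gene counts per library ranged from 11049931 in tumour 1 to 18448621 in the normal table labelled wild type. The normal tables shared counts beyond sampling: their counts were identical for 56.8% of the 2632 genes that averaged 1 to 5 counts, where independent libraries with the same sums would give 29.3% and the tumours gave 13.1%. They differed by less than the sampling noise there and were counted as 1 sample, their rounded mean, called normal liver below. Levels are given as CPM, counts relative to library size, after TMM scaling, which sets libraries to a common bulk of genes. The labelled tissue is liver, but 7 of 7 hepatocyte markers were lower in both tumours than in normal liver, with summed levels of 168 and 156 CPM against 193000. Of 6 bile duct markers, 4 were higher in both tumours (all 6 summed to 1320 and 668 against 16.2 CPM). Epcam and Cftr were higher in tumour 1 (24.0 and 31.4 CPM) and lower in tumour 2 (0.215 and 0.376 CPM). Normal liver had 5.15 and 1.75 CPM of them. Endothelial markers summed to 0.674 and 1.34 CPM against 241, and 6 of 7 T cell markers were at 0 counts in each tumour. The submitters' short descriptions of the samples use the words Tcell, for the tumours, and Hepatocytes, which do not match the tissue labels. Their meaning is not given, so the material sequenced is uncertain. Groups here follow the titles and genotype labels. Fewer cells of a type and less RNA per cell cannot be told apart in these bulk libraries, and the part of these marker differences in the results below was not tested.

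RefSeq promoter sequence (build GRCm38.p6, another build than the counts) was held for 8 of the 10 members, all but Fosl1 and Egr1. The stretches below are the 150 bases before the annotated start of 5 members, read 5′ to 3′ along the gene. They are shown because these genes span the responses described below, from Jun, which stood lowest against normal liver, to Ier3, which stood far above it. Capitals mark matches, on either strand, to any of 4 motifs. The first, TGACG, is the half-site of the cyclic AMP response element and lies within its full form TGACGTCA. The next is TATAAA, the core of the TATA box. GCGGGGGCG is a site of the EGR zinc fingers, and TGACATCA is the AP-1 site variant of the Jun promoter.
Fos, chr12:85473740-85473889, plus strand: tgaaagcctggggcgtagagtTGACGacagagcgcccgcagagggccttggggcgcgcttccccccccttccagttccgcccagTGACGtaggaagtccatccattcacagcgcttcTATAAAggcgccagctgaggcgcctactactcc
Fosl2, chr5:32136322-32136471, plus strand: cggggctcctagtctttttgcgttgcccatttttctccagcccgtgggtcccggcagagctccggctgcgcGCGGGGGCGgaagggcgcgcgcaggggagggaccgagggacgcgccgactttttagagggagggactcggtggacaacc
Jun, chr4:95052223-95052372, minus strand: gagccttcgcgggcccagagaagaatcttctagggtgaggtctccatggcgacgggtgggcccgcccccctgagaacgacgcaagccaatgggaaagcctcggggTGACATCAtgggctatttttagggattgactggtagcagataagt
Atf3, chr1:191183334-191183483, minus strand: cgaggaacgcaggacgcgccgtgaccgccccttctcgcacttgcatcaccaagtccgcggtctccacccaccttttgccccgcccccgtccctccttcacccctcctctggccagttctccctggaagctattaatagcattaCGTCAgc
Ier3, chr17:35821563-35821712, plus strand: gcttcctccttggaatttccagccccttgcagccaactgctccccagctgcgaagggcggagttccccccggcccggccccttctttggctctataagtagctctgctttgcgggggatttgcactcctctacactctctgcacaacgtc
In the full windows of 300 bases (250 before and 50 after the start), TGACG matched in 4 of 8 members (Atf3, Fos, Fosb and Junb), against 21% of 27025 mouse promoters of that length. GCGGGGGCG matched in Fosb and Fosl2 (2.92% of all promoters), TATAAA in Fos and Junb (14.2%) and TGACATCA in Jun, 45 bases before the start (3.76%). The AP-1 site TGACTCA, TGACGTCA and the CArG box, the site of SRF, had 0 matches among the 8 (5.17%, 1.88% and 1.57% of all promoters). At such shares, 0 of 8 lies near the background. Sequence beyond this window, and that of Fosl1 and Egr1, was not searched. A match is a run of letters, not a measured binding site, and the Ier3 stretch shown held none of these motifs.

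The first question was how the 10 genes differed between tumours and normal liver. Ier3 rose, by 128-fold, and the other 9 did not pass the test (edgeR's quasi-likelihood test, Benjamini-Hochberg adjusted p under 0.05). Apart from Jun, the members all had higher scaled levels in both tumours than in normal liver. The median log2 fold change of the 10 was 1.87, against 0.19 over the 14468 genes tested, and with Jun and Egr1 at the low end the set was far from uniform. Of all genes tested, 2.23% were called higher (322) and 5.18% lower (750); without a scaling factor these became 635 and 472. In both tumours, 5 members stood over 2-fold above normal liver (Fosl1, Fosl2, Junb, Atf3 and Ier3), where 23.9% of all genes did, and 9 stood above it at all, where 43.1% of all genes did. All 10 passed the filter on low counts, Fosl1 and Ier3 only through their tumour counts. The fit has 1 residual degree of freedom, from the tumours, and before adjustment its p was under 0.05 for 5 higher and 0 lower members, where 12.5% and 15.5% of all genes were so.

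**Figure D1:**
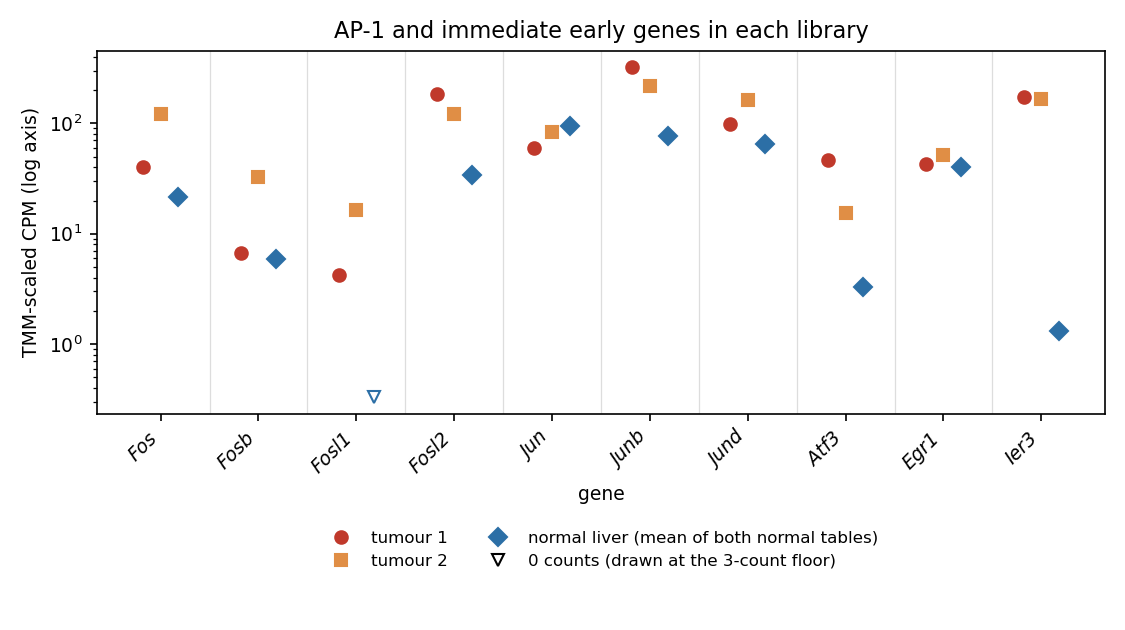
Scaled level (TMM-scaled CPM, log axis) of the 10 members in tumour 1 (circles), tumour 2 (squares) and normal liver, the mean of both normal tables (diamonds). The open triangle marks a rounded count of 0, drawn at the floor of 3 counts (0.329 CPM). Ier3 stands at 172 and 168 CPM in the tumours against 1.31 CPM, while the 3 points of Egr1 lie close together.

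In the Fos family, Fosl2 stood at similar levels in both tumours, and Fosl1 was nearly absent from normal liver. Fosl2, which encodes the Fos relative FRA2, had 2715 and 2283 counts in tumours 1 and 2. The double heterozygous normal table had 299 and the wild type one 322, the order in which normal tables are given throughout. Both tumours lay above both normal tables, at 153 ± 42.7 CPM (SD, n = 2) against 34.0 CPM, a log2 fold change of 2.17 (SE 0.65, edgeR adjusted p = 0.127). Fosl1, which encodes FRA1, a Fos relative linked to invasive tumour cells, had 63 and 309 counts in the tumours and 0 and 1 in the normal tables. Summed tumour counts over the single count of the wild type table gave a ratio of 109, with an exact 95% counting interval of 19.5 to 4330. Fosl1 missed the threshold (edgeR adjusted p = 0.0875) and passed it under DESeq2 (adjusted p = 0.00293) and in edgeR without the low count filter (0.0309). In these fits the normal count of Fosl1 was its rounded mean, 0. Against the wild type table alone, which keeps the 1 count, the log2 fold change was 6.56, and the threshold was missed. By sequence, 55.9% of the 31-mers of Fosl1 lie also in Ccdc85b, which overlaps it in the genome. Ccdc85b had 116 and 307 counts in the tumours against 34 and 35, so the Fosl1 count is uncertain.

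Fos and Fosb were high in tumour 2 and nearer to normal liver in tumour 1. Fos, the founding member of the family, had 596 and 2285 counts in tumours 1 and 2 against 170 and 220 in the normal tables. On the scaled level this was 40.2 and 123 CPM against 21.4 CPM, with a log2 fold change of 1.93 (SE 0.93, edgeR adjusted p = 0.257). Fosb, a close relative of Fos with a strongly inducible and short-lived transcript, had 99 and 614 counts against 42 and 65. Its levels of 6.67 and 33.0 CPM stood against 5.92 CPM, so that tumour 1 was nearly level with normal liver and tumour 2 was not (log2 fold change 1.74, SE 1.24, edgeR adjusted p = 0.407). Fos and Fosb had no 31-mer sampled that lies in another gene.

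The Jun family was split. Junb, which often restrains Jun activity and growth, had 4786 and 4077 counts in tumours 1 and 2 against 698 and 705 in the normal tables. Both tumours stood above both normal tables, at 271 ± 73.3 CPM (SD, n = 2) against 77.0 CPM (log2 fold change 1.81, SE 0.66, edgeR adjusted p = 0.174). Jund, the family member that most tissues express steadily, had 1478 and 3039 counts against 586 and 597. Its scaled levels were 99.6 and 163 CPM against 64.9 CPM (log2 fold change 1.02, SE 0.63, edgeR adjusted p = 0.353), and 49% of its 31-mers lie also in the overlapping gene model Gm11175.

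Jun itself was the exception. Its counts were 894 and 1543 in the tumours and 856 in each normal table. On the scaled level it stood at 60.2 and 82.8 CPM in the tumours, below the 93.8 CPM of normal liver in both, with a log2 fold change of -0.39 (SE 0.55, edgeR adjusted p = 0.673) that turned to 0.985 when no scaling factor was used. That setting moved the median gene by 1.37 on the log2 scale. Relative to the median of all genes, Jun lay at -0.58 with and without the scaling factor. A scaling factor moves all genes nearly alike, so this agreement was fixed in advance and does not settle the direction of Jun. Of its 31-mers, 7.0% lie also in Junos, a transcript that overlaps it.

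Atf3, Egr1 and Ier3 gave 3 different pictures. Ier3, a small protein gene induced by NF-kB, p53 and growth factor signals and involved in cell survival, had 2551 and 3124 counts in tumours 1 and 2 against only 11 and 12 in the normal tables. The tumours agreed closely with each other, at 170 ± 2.96 CPM (SD, n = 2) against 1.31 CPM, and Ier3 rose with a log2 fold change of 7.002 (SE 0.79, edgeR adjusted p = 0.0252). Its call held in all 9 alternative fits, with adjusted p from 1.36e-14 to 0.027. Those fits reuse the same libraries, so their agreement is no independent support for the call. Ier3 also passed the low count filter of the main fit only through its tumour counts. Atf3, a stress-induced factor that pairs with Jun proteins and often represses its targets, had 689 and 285 counts against 26 and 35. Atf3 was thus higher in both tumours, and most so in tumour 1, at 46.4 and 15.3 CPM against 3.29 CPM (log2 fold change 3.23, SE 1.06, edgeR adjusted p = 0.150). Egr1, a zinc finger factor that is a standard readout of ERK and SRF signalling, had 633 and 970 counts against 347 and 385. After scaling, Egr1 was at 47.4 ± 6.66 CPM (SD, n = 2) against 40.1 CPM. Its log2 fold change of 0.24 (SE 0.56, edgeR adjusted p = 0.805) was smaller than its SE, so a change in either direction remains possible.

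**Figure D2:**
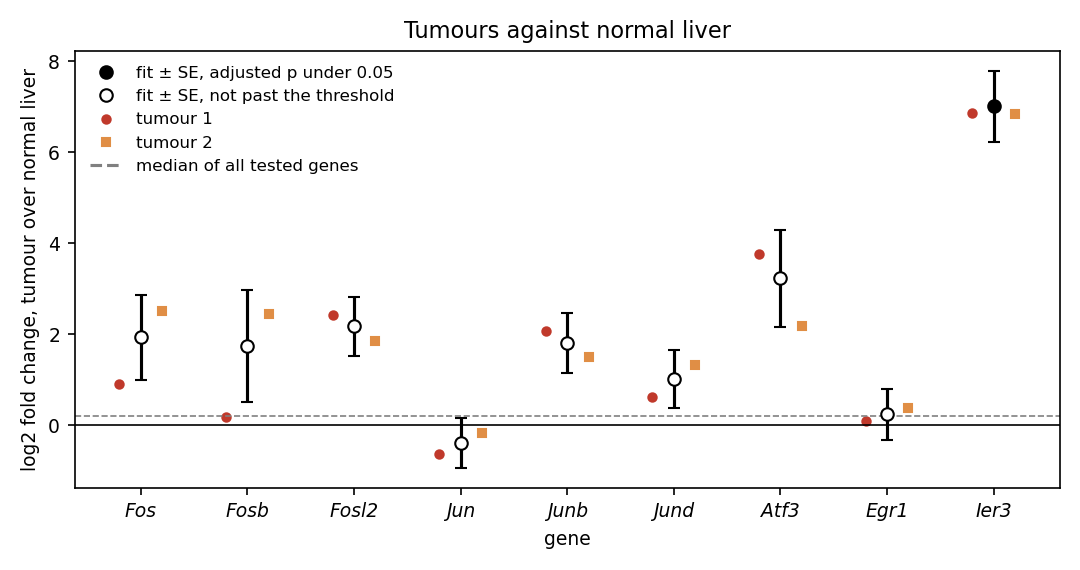
Log2 fold change over normal liver from the fit with its SE (black), filled where the adjusted p passed, beside the log2 ratio of each tumour alone (prior count of 2). The dashed line is the median of all tested genes, 0.19; Fosl1 is left out because its normal count rounds to 0. Ier3 is the filled point, and Jun is the single gene with both tumours below 0 on this scaling.

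Without tumour 2, 5 members in place of 8 were over 2-fold higher than normal liver. The share of all genes past 2-fold by these measures was not counted, so both counts are descriptions only. The log2 ratio of tumour 1 alone to normal liver was 0.90 for Fos, 0.17 for Fosb and 0.62 for Jund, and that of tumour 2 alone was 2.51, 2.45 and 1.33. With both normal tables taken as separate libraries, which treats shared counts as replicates, 5 members were called higher (Fosl1, Fosl2, Junb, Atf3 and Ier3) and 0 lower, where 22.6% and 23.4% of all genes were. DESeq2 called 4 higher (Fosl1, Fosl2, Atf3 and Ier3) and 0 lower, against 12.2% and 12.8% of the genes it tested. Without the low count filter, edgeR called Fosl1 and Ier3 higher and 0 members lower, against 4.88% and 7.47% of all genes.

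To compare levels between genes, CPM was divided by the merged exon length in kilobases. In normal liver, Jund, Junb and Jun stood near each other at 38.9, 33.4 and 29.4 CPM per kilobase, and Fos followed at 9.09. In tumour 1, Ier3 and Junb led at 152 and 140 CPM per kilobase, at percentiles 99.0 and 98.9 of the genes detected there, and Jund followed at 59.7. In tumour 2, Ier3 led at 148, Jund and Junb were nearly level at 97.8 and 95.1, and Fos stood at 52.1. Jun was at 18.9 and 26.0 CPM per kilobase in tumours 1 and 2. Ier3 ranked 8 of the 10 members in normal liver and 1 in both tumours. With the longest transcript as gene length, Junb led in tumour 1 at 178 against 152 CPM per kilobase for Ier3, Ier3 still led in tumour 2, and its rank in normal liver was 9. Junb then also stood above Jund in tumour 2 (121 against 97.8) and in normal liver (42.5 against 38.9).

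Within the summed Fos and Jun family level per length, the Jun gene made up 26.0% and 25.1% in the normal tables labelled double heterozygous and wild type, but 7.33% and 8.74% in tumours 1 and 2. Junb made up 54.3% in tumour 1 and 32.0% in tumour 2, against 29.4% and 28.6% in the normal tables. The Fos gene made up 6.62% in tumour 1 and 17.5% in tumour 2, against at most 8.74% in the normal tables. Summed over its 4 genes, the Fos family held 15.2% in tumour 1, 26.3% in tumour 2, and 10.6% and 12.9% in the normal tables. The summed level of both families was 258 and 297 CPM per kilobase in the tumours against 115 in normal liver. These shares describe single libraries, of transcripts and not of proteins or dimers, and those of Jund and Fosl1 carry the uncertainty of their overlapping genes.

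**Figure D3:**
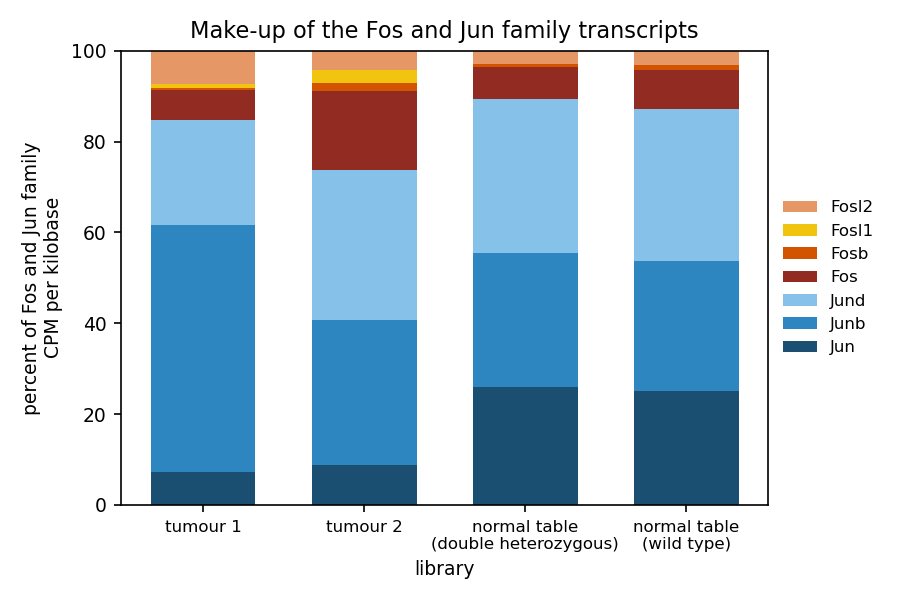
Share (percent) of each Fos and Jun family gene in the summed CPM per kilobase of merged exons, for both tumours and both normal tables. Blue segments are Jun family genes and the others Fos family genes; the darkest segment at the bottom, Jun, is 7.33% and 8.74% in the tumours and 26.0% and 25.1% in the normal tables.

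The next question was how the tumours differed from each other. With 1 library against 1 there is no replicate check and no test, and the intervals below are exact 95% binomial intervals that cover counting error only. Fosb, Fosl1 and Fos were higher in tumour 2, by 4.94-fold (3.99 to 6.17), 3.91-fold (2.97 to 5.21) and 3.05-fold (2.79 to 3.35). Atf3 went the other way and was 3.03-fold higher in tumour 1 (2.64 to 3.50). Thus 3 of 10 members were over 2-fold higher in tumour 2 and 1 was over 2-fold lower, among 9626 genes with at least 10 CPM in either tumour of which 15.8% and 12.1% were. Smaller differences were found for Jund (1.64-fold higher in tumour 2), Jun (1.38-fold), Egr1 (1.22-fold), Fosl2 (1.49-fold higher in tumour 1) and Junb (1.47-fold higher in tumour 1). Ier3 was at a ratio of 0.976, with an interval of 0.926 to 1.03.

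Of the other immediate early genes, 32 had at least 10 CPM in either tumour. Of these, 5 were over 2-fold higher in tumour 2 and 3 over 2-fold lower, where 15.8% and 12.1% of all genes at that level were. These counts lie near the background. Nr4a1, an orphan nuclear receptor gene, had 30 counts in tumour 1 and 219 in tumour 2, a log2 ratio of 2.47. Egr2, under 10 CPM in both, had 23 and 113 counts (1.89 on the log2 scale). Zfp36 went the other way, with 664 and 234 counts and a log2 ratio of -1.82, while Ier2, at 1494 and 1311 counts, had a log2 ratio of -0.52. Stromal markers also differed between these libraries: 7 of 8 stellate cell and fibroblast markers were over 2-fold higher in tumour 2, with Lum at 0 counts in both, and their summed level was 5.52 CPM in tumour 1 and 813 in tumour 2, against 101 in normal liver. Macrophage markers summed to 19.4 and 4.78 CPM in tumours 1 and 2, against 159 in normal liver. Of these 7 markers, 5 were lower in both tumours than in normal liver. Marco was higher in tumour 1 (8.15 against 1.64 CPM) and Cd68 in tumour 2 (3.49 against 2.41 CPM). The part of these cell markers in the Fos, Fosb, Fosl1 and Atf3 differences was not tested.

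**Figure D4:**
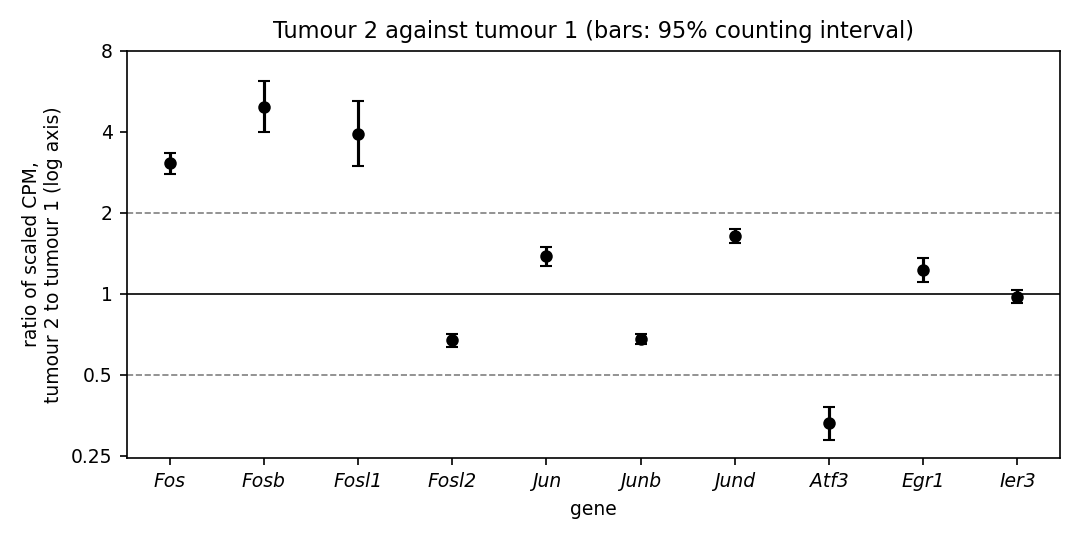
Ratio of scaled CPM in tumour 2 to tumour 1 (log axis) with its 95% counting interval for each member; dashed lines mark 2-fold. Fos, Fosb and Fosl1 lie above the upper line, Atf3 below the lower one, and Ier3 at 0.976.

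Between the normal tables, Jun had 856 counts in both, and the other 9 members had the lower count in the table labelled double heterozygous, which is the shallower one. After scaling the direction was mixed, with 6 members higher and 4 lower in that table, at log2 differences from -0.54 (Fosl1) to 0.28 (Jun). By the ratio of their counts, Fosb (42 against 65), Atf3 (26 against 35) and Fos (170 against 220) differed most among the members with over 1 count. Of the 6 members with at least 10 CPM in either table, 0 differed over 2-fold, where 4.42% of 8322 genes did. Because the tables shared counts, this comparison does not show whether the genotype acts on these genes in normal liver.

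Relatives and partners of AP-1 followed no single direction. Of 12 related leucine zipper genes, 9 were tested, and edgeR called 0 higher and 0 lower, where 2.23% and 5.18% of all genes were. DESeq2 called 1 higher and 1 lower (12.2% and 12.8% of all genes), the same numbers as edgeR's p under 0.05 before adjustment (12.5% and 15.5%), so these counts lie near the background. The median log2 fold change was 0.72, and 3 of the 9 passed the low count filter only through their tumour counts. Jdp2, which encodes a repressor that dimerizes with Jun, had 284 and 554 counts in the tumours against 9 and 11 in the normal tables (log2 fold change 4.47, SE 0.91, edgeR adjusted p = 0.0649). Both tumours were far above the normal tables for Jdp2, but the threshold was missed. The small MAF gene Maff had 587 and 814 counts against 201 and 227 (log2 fold change 0.83, edgeR adjusted p = 0.407), and Batf3 only 1 and 19 against 3 and 3. Lower in both tumours were Maf, with 73 and 34 counts against 335 and 353 (log2 fold change -3.48, edgeR adjusted p = 0.0930), and Mafg, with 400 and 615 against 649 and 724 (-1.33, adjusted p = 0.203), both named after their values were seen.

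Other immediate early genes moved in both directions. Of 43 genes listed, 38 were tested, 3 rose and 3 fell, beside 2.23% and 5.18% of all genes, with a median log2 fold change of 1.18. Of the 38, 7 passed the low count filter only through their tumour counts, Ptgs2 among them. The prostaglandin synthase gene Ptgs2 had 8 counts in each normal table and reached 1996 and 1605 in tumours 1 and 2, a log2 fold change of 6.96 (SE 0.89, edgeR adjusted p = 0.0295). Cyr61, a secreted matrix protein gene driven by SRF and YAP, had 4701 and 11311 counts against 85 and 94 (5.55, SE 0.96, adjusted p = 0.0489). Ier5 had 2100 and 1913 counts against 57 and 56 (4.31, SE 0.71, adjusted p = 0.0461). All 3 were thus high in both tumours, like Ier3.

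The genes of this list that fell were abundant in normal liver. Plk3, a stress-responsive kinase gene, had 53 and 126 counts against 5366 and 7144 (log2 fold change -7.05, SE 0.75, edgeR adjusted p = 0.0229). Errfi1, an inhibitor of the EGF receptor, had 1085 and 1568 counts against 16969 and 18045 (-4.61, SE 0.67, adjusted p = 0.0363). The clock gene Per1 had 118 and 195 against 1046 and 1381 (-3.85, SE 0.56, adjusted p = 0.0362). Without a scaling factor the calls of Errfi1 and Per1 were lost, at adjusted p = 0.0503 and 0.0741.

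Other classical members of the programme did not pass the test and lay on either side of normal liver. Dusp1, the phosphatase that switches MAP kinases off, was at 109 and 91.8 CPM against 91.4 CPM (log2 fold change 0.13, SE 0.54, edgeR adjusted p = 0.891). Of the classical genes named here it was the nearest to normal liver, though other genes of the list lay nearer. Zfp36, which destabilizes inflammatory transcripts, was at 44.7 and 12.6 CPM against 79.1 CPM (-1.47, SE 0.88, adjusted p = 0.340). Nr4a1 was at 2.02 and 11.8 CPM against 5.04 CPM, with the tumours on either side of normal liver. Ier2 was at 101 and 70.4 CPM against 45.4 CPM (0.91, SE 0.59, adjusted p = 0.370). Egr2 had 1 count in each normal table, and its summed tumour counts gave a ratio to the wild type table above 1, with a counting interval of 7.06 to 1590 (edgeR adjusted p = 0.206). Egr3 had 5 and 7 counts in the tumours and 0 in both normal tables.

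Among 28 genes of the kinases and factors that act on AP-1, 27 were tested. Of these, edgeR called 0 higher and 0 lower, where 2.23% and 5.18% of all genes were. Before adjustment, edgeR's p was under 0.05 for 3 higher and 4 lower genes, near the 12.5% and 15.5% of all genes, and DESeq2 called 2 in each direction, where it called 12.2% and 12.8% of all genes. The median log2 fold change was 0.06, against 0.19 for all genes. Mapk8, which encodes the Jun kinase JNK1, was at 43.1 and 32.5 CPM against 37.4 CPM (0.02, SE 0.58, edgeR adjusted p = 0.989). Srf was at 28.6 and 57.2 CPM against 16.3 CPM (1.39, SE 0.75, adjusted p = 0.298). Kinase activity is not measured by transcript counts.

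Of 20 textbook target genes of AP-1, 19 were tested, 9 rose and 0 fell, beside 2.23% and 5.18% of all genes. Of the 19, 12 passed the filter on low counts only through their tumour counts, among them 5 of the 9 that rose (Areg, Ccl2, Lif, Plaur and Timp1), so the counts and the median are descriptions only. In both tumours, 15 of the 19 stood over 2-fold above normal liver, where 23.9% of all genes did. The median log2 fold change was 5.98, or 5.32 with genes at 0 in both normal tables taken at their bound. The list was drawn up with earlier results of these data known, in which several of its genes were already seen to rise, so its count is no independent evidence of direction. Plaur, the urokinase receptor gene, had 1822 and 1205 counts against 4 and 7 (log2 fold change 7.14, SE 1.00, edgeR adjusted p = 0.0346). The hyaluronan receptor gene Cd44 had 5725 and 6405 against 39 and 38 (6.45, SE 0.82, adjusted p = 0.0294).

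Secreted products were among the targets that rose. Ccl2, a chemokine that attracts monocytes, had 7325 and 4702 counts in the tumours and 1 in each normal table (edgeR adjusted p = 0.0256), and its ratio to the wild type table was 3540, with a counting interval of 635 to 140000. Areg, an EGF receptor ligand gene, had 466 and 705 counts against 1 and 2 (adjusted p = 0.0315), a ratio of 172 (47.5 to 1420). The metalloproteinase inhibitor gene Timp1 had 393 and 1152 counts against 0 and 0 and was at least 134-fold higher (adjusted p = 0.0357). Lif, a cytokine of the interleukin 6 family, had 323 and 390 counts against 0 and 0 and was at least 64.9-fold higher (adjusted p = 0.0316). These bounds use a floor of 3 counts in the mean normal library. The other 3 that rose were Hbegf, Ccnd1 and Spp1, the last 2 with sequence shared with other genes.

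**Figure D5:**
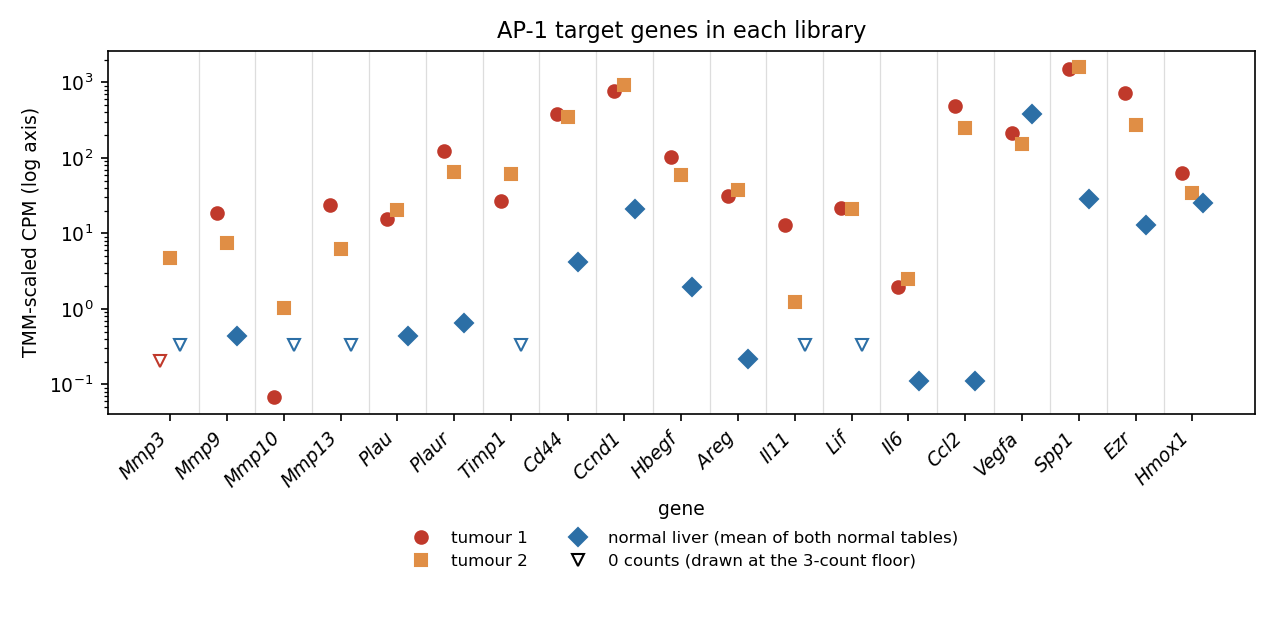
Scaled level (TMM-scaled CPM, log axis) of the AP-1 target genes with any count, in tumour 1 (circles), tumour 2 (squares) and normal liver (diamonds). Open triangles mark 0 counts, drawn at the floor of 3 counts. Plaur stands at 123 and 64.7 CPM in the tumours against 0.658 CPM, whereas Vegfa, at 212 and 152 against 382 CPM, is lower in both tumours.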

How the data were processed

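The authors deposited 1 table of unnormalized read counts per gene symbol for each library. The submitters' processing notes name TopHat2 2.0.10, HTSeq, FastQC, Trimmomatic, DESeq2 and the mm9 build, with no role or order. Strand use in counting is not given in the sources used here. RNA was extracted with TRIZOL and libraries made with an Illumina TruSeq kit, per the labels' protocols. Of each table, 5 lines name no gene and were not used in the fits. Outside genes lay 13.6% and 16.4% of all lines in tumours 1 and 2 and 24.4% and 31.5% in the normal tables labelled double heterozygous and wild type, and 45.6%, 42.3%, 51.5% and 30.7% were not uniquely aligned.

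Tumours were compared with the rounded mean of the normal tables in edgeR 4.0.16 (R 4.3.3; TMM, filterByExpr with a minimum count of 10, quasi-likelihood test, Benjamini-Hochberg adjusted p under 0.05). The single normal library borrows its spread from the tumours (common dispersion 0.442). SE was derived from the log2 fold change and the F statistic and is approximate. Ratios of single libraries add a prior count of 2. Exon lengths and shared 31-mers (genes above 10% are called shared) come from GENCODE M21 transcripts, which 89.4% of symbols matched, and promoters from RefSeq. The procedure was also run on simulated counts with less spread than these data and with large planted changes. That run does not show how the test performs on changes and spread like those found here. DESeq2 1.42.0, other scalings, filters and normal libraries were alternatives. Named are all 10 members and 12 genes fixed by name. Up to 6 genes per companion list and direction with the largest change past the test are also named. Hbegf, Ccnd1, Spp1, Vegfa, Maf and Mafg were named after their values were seen. So were Klf6, Klf4, Plk2, Gadd45b, Mmp13 and Il11. The members and lists were chosen with earlier results of these data known. A companion list item that is withheld is not reported here. Reads carry no molecular identifiers, so intervals and floors cover only counting error.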

Additional observations from a re-analysis of the deposited data

How the results depend on the processing

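No paired analysis was possible because the normal samples carry no replicate number in the labels. The call of Ier3 and the absence of members called lower held in all 9 alternative fits, which reuse the same libraries. With both normal tables as separate libraries, 5 members were called higher, as were 3058 genes in all (3157 lower). That was 22.6% and 23.4% of all genes tested. In the lists, this fit called 3 related leucine zipper genes higher (2 lower) and 18 other immediate early genes (7 lower). It also called 5 upstream genes higher (7 lower) and 14 AP-1 targets (1 lower). DESeq2 called 4 members higher (Fosl1, Fosl2, Atf3 and Ier3) and 1666 genes in all (1742 lower), or 12.2% and 12.8% of those it tested. In the lists it called 1 related gene (1 lower), 9 other immediate early genes (5 lower), 2 upstream genes (2 lower) and 14 targets. Without the low count filter it was 2 members and 903 genes (1383 lower), or 4.88% and 7.47% of those tested. In the lists it was 1 related gene (1 lower), 8 other immediate early genes and 1 upstream gene (1 lower). Without a scaling factor it was 635 of the 14468 genes tested (472 lower). In the lists it was then 1 related gene, 7 other immediate early genes (1 lower) and 1 upstream gene, and Jun turned from -0.39 to 0.985. RLE size factors gave 6 other immediate early genes higher and 1 upstream gene in each direction. With the normal table labelled wild type alone, the counts of these lists also moved. With RLE size factors, 413 of the 14468 genes tested were called higher and 938 lower. The cause of the differences between settings was not tested. Leaving out a tumour left no test. The count of members over 2-fold higher was then 5 to 8, a description with no share of all genes counted beside it. With the longest transcript as gene length, the Jun family share was 83.4% and 72.1% in tumours 1 and 2 and 88.0% and 85.6% in the normal tables labelled double heterozygous and wild type. At these depths a gene with 0 counts could lie at up to 0.202, 0.161 and 0.329 CPM in tumour 1, tumour 2 and normal liver.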

Other observations

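A further group of immediate early genes, chosen after their values were seen, stood high in both tumours and just missed the threshold. Klf6, a zinc finger factor gene, had 6206 and 4583 counts in tumours 1 and 2 against 142 and 152 in the normal tables (log2 fold change 4.36, SE 0.82, edgeR adjusted p = 0.0562). Its relative Klf4 had 797 and 1101 counts against 33 and 37 (3.88, SE 0.70, adjusted p = 0.0527). Plk2 had 3175 and 5397 counts against 147 and 192 (3.76, SE 0.71, adjusted p = 0.0562), whereas its family member Plk3 fell. Gadd45b, a stress response gene, had 412 and 465 counts against 11 and 14 (4.32, SE 0.82, adjusted p = 0.0571). Each of these 4 genes was thus higher in both tumours than in both normal tables. Only genes that rose were picked, and Phlda1 of the same list, which also missed the threshold, fell (log2 fold change -2.45).

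The collagenase gene Mmp13, a classical AP-1 target, had 355 and 116 counts in tumours 1 and 2 and 0 in both normal tables. It was at least 45.8-fold higher and did not pass the test (edgeR adjusted p = 0.0745). Il11, a cytokine gene, had 191 counts in tumour 1 and 23 in tumour 2 (adjusted p = 0.157). Like Atf3, both were higher in tumour 1, with no replicate of either tumour. These genes too were chosen after their values were seen.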
